A study of Homo sapiens with 4 samples.

Results

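The genes described here encode the nuclear part of the oxidative phosphorylation system in A549 and H441 cells, 48 h after the transcriptional co-activator TAZ (gene WWTR1) was targeted. They were all genes with a probe set of 1 gene symbol that matched NDUFA, NDUFB, NDUFC, NDUFS or NDUFV, SDHA to SDHD, UQCR, COX4 to COX8, or ATP5. This rule found 89 of the 18377 genes on the table, on 97 probe sets. By prefix, 42 belonged to complex I, 3 to complex II, 8 to complex III, 17 to complex IV and 19 to complex V. The working name of subunit genes holds for 78 of them. The rest were the 7 NDUFAF assembly factors of complex I, the ATP synthase inhibitor gene ATP5IF1, the divergent transcript NDUFV1-DT and the pseudogenes UQCRBP1 and ATP5F1EP2. SDHB, NDUFA4, UQCRFS1 and ATP5F1E were not analysed here: a probe set had to name 1 gene only, and none did so for them.

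A549 and H441 are established human lung adenocarcinoma cell lines. Each was transfected with a control siRNA (siNTC) or with siTAZ through a lipid reagent, and each of the 4 combinations was measured on 1 Affymetrix whole-transcript array. No group had a replicate. The sources used here do not give the siRNA sequences or say whether several were mixed. WWTR1 had 19% of its control signal left in A549 and 22.7% in H441. Array medians were 6.05 to 6.25 on the log2 scale. All 5 epithelial markers checked (EPCAM, KRT8, KRT18, KRT19, CDH1) were at or above the table median of 6.13 on every array. Of 4 lung lineage markers 3 were above it on both H441 arrays, and at most 1 on an A549 array. Of the 3 endothelial markers none reached it, and of the 3 leukocyte markers only CD68 did (8.61 to 10.4), with PTPRC at 4.74 or less. Of 4 fibroblast markers, 1 reached it on each A549 array, against 2 and 3 on the H441 arrays with siNTC and siTAZ. Their part in the results was not tested.

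Oxidative phosphorylation takes place in the inner mitochondrial membrane. Complex I (NADH dehydrogenase) and complex II (succinate dehydrogenase) pass electrons to ubiquinone, complex III hands them to cytochrome c, and complex IV (cytochrome c oxidase) reduces oxygen with them. Complexes I, III and IV pump protons, and complex V (ATP synthase) uses the gradient to make ATP. Most subunits are encoded in the nucleus, and some of their genes share promoter elements for the factors NRF1 and GABPA. A small core is encoded in mitochondrial DNA, whose genes were not analysed here.

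The promoters of 4 members whose values are described below are given first. COX7B had the largest difference of any member, COX6A1 the largest in A549, and NDUFA12 the largest among complex I subunits in H441. SDHD had the largest mean increase over both lines on the brighter of its probe sets. With probe sets averaged, NDUFB8 had a larger one (0.24, against 0.19 for SDHD). Each run holds the 250 bases before the RefSeq start of the gene (GRCh38.p14), 5′ to 3′ on the gene's strand. They lie at chrX:77899218-77899467 (plus strand) for COX7B, chr12:120437863-120438112 (plus) for COX6A1, chr12:95003698-95003947 (minus) for NDUFA12 and chr11:112086623-112086872 (plus) for SDHD. Capitals mark matches to any of 5 motifs, searched on both strands: GCGCA and GCGC with any base between them (NRF1), CCGGAAG (GABPA and other ETS factors), GGAATG (TEAD, the DNA-binding partners of TAZ), TATAAA and CCAAT.
COX7B: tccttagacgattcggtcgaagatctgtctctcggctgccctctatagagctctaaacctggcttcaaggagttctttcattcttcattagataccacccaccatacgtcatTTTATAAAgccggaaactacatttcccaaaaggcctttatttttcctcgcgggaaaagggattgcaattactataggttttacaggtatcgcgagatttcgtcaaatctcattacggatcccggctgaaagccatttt
COX6A1: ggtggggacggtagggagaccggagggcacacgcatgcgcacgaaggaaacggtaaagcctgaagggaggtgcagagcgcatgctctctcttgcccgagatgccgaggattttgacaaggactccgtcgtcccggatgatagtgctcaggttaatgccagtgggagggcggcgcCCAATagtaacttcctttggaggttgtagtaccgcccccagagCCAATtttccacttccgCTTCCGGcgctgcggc
NDUFA12: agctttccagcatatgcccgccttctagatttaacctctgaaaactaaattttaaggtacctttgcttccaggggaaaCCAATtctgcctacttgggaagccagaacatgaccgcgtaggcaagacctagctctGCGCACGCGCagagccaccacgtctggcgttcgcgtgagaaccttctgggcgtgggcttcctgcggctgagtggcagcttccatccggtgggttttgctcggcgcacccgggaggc
SDHD: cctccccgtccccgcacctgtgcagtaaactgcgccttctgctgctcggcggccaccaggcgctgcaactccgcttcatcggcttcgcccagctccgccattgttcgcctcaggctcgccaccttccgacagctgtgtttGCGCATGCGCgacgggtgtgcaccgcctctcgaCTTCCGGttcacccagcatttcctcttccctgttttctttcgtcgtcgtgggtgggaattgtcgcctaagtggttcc

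Counting the last base before the start as position -1, SDHD held the NRF1 motif at -110 to -101 and the ETS motif at -77 to -71. NDUFA12 held an NRF1 motif and a CCAAT box, and COX6A1 held an ETS motif and a pair of CCAAT boxes. COX7B held only TATAAA, in an overlapping pair on opposite strands, and was the least GC-rich of the 4 (43.2%, against 56.8% to 62.8%). GGAATG was in none of the 4. RefSeq windows matched 74 of the 89 genes, with 90 windows. The NRF1 motif was in 15.6% of these windows, against 5.07% of all 35116 windows, and the ETS motif in 21.1% against 8.52%. GGAATG was in 8.89% against 11.9%, TATAAA in 7.78% against 10.7% and CCAAT in 32.2% against 32.0%. A match describes these letters and is not evidence of binding.

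After siTAZ about as many of these genes were higher as lower in each line, and no member passed the limma test over both lines. COX7B in H441, SDHD and COX6A1 in A549 and a few complex I genes in H441 had the largest differences. The SDHD value is from a probe set that may lie at another locus. Each difference is the log2 signal with siTAZ minus that with siNTC, and a gene was counted in a line where the higher of its 2 arrays reached the table median. The median difference over the 80 members counted in A549 was -0.00029, against 0.0051 over all 11405 genes counted. Over the 79 counted in H441 it was -0.0008, against 0.0048 over 11911 genes. In A549, 39 members were higher and 40 lower, with NDUFS4 at the same value on both arrays, where 50.9% of all genes were higher and 48.4% lower. In H441, 38 were higher and 41 lower, where 50.8% of all genes were higher and 48.8% lower. This even split in H441 moved with the scaling of the arrays. After centring each array on the same median 21 of 79 members were higher (33.2% of all genes), after quantile normalization 47 (53.1%) and after cyclic loess 46 (51.5%). Fewer cells and less RNA per cell cannot be told apart in such bulk samples.

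Few members differed by much. In A549, 2 of 80 members were at least 1.2-fold higher (COX6A1 and SDHD), where 11% of all genes were, and none was at least 1.2-fold lower, where 8.66% were. In H441, 2 of 79 were at least 1.2-fold higher (COX7C and NDUFA13), where 9.7% of all genes were. There 8 were at least 1.2-fold lower (COX7B, NDUFAF6, NDUFA12, NDUFB6, NDUFV2, NDUFA5, NDUFAB1 and NDUFB3), where 10.7% were. At 1.5-fold, COX7B in H441 was the only member counted in either line, where 0.974% of all genes in H441 were that much lower and 0.479% higher. In A549 the shares of all genes were 1.07% lower and 1.76% higher. The SD across members was 0.14 in A549 and 0.20 in H441, against 0.24 and 0.22 across all genes counted.

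**Figure D1:**
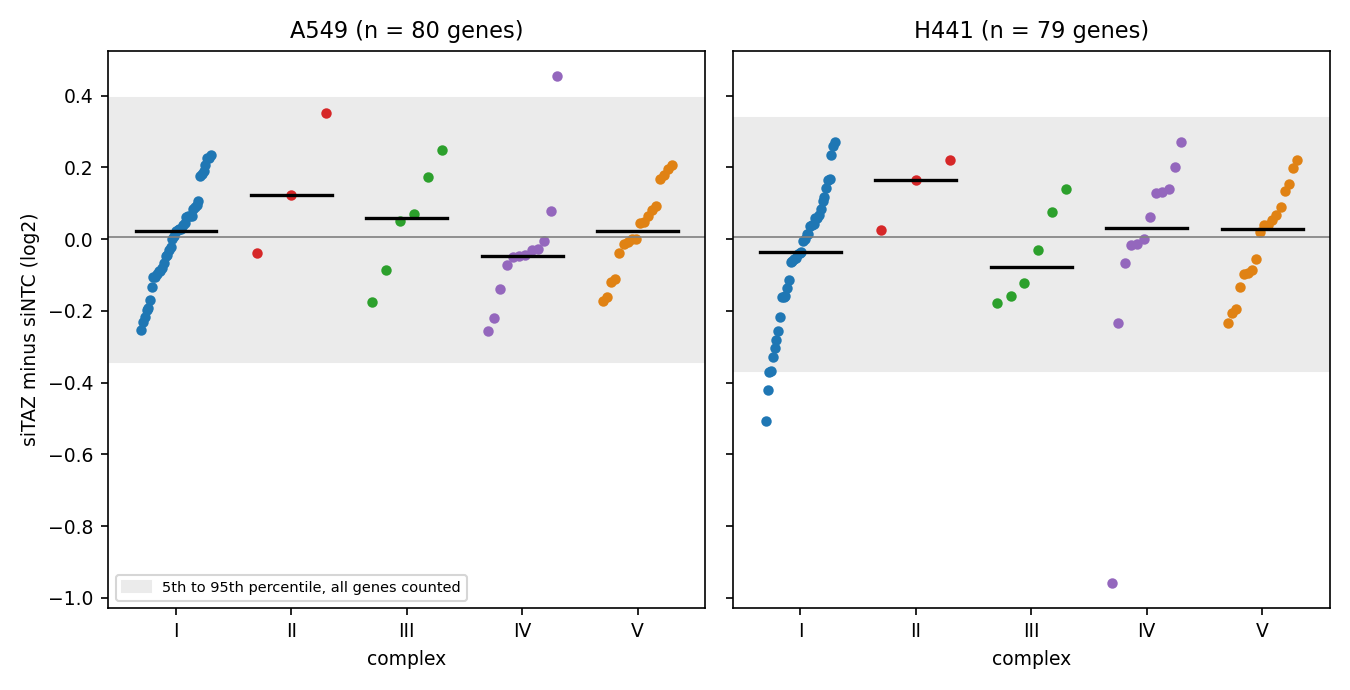
Difference of siTAZ minus siNTC (log2) for each member counted, by complex, in A549 (left, 80 genes) and H441 (right, 79 genes); 1 point per gene, black bars are medians, the grey band spans the 5th to 95th percentile of all genes counted in that line and the grey line their median. Only COX6A1 in A549 lies above a band, and only COX7B, NDUFAF6, NDUFA12 and, narrowly, NDUFB6 in H441 lie below one.

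Over both lines, 0 of the 80 tested members passed the limma test (lmFit and eBayes on 12740 genes with cell line as a block, Benjamini-Hochberg adjusted p under 0.05), where 2.47% of all genes tested did, 1.19% higher and 1.29% lower. An unadjusted limma p under 0.05 was reached by 6 members, 5 lower and 1 higher, where 13.2% of all genes reached it. The spread behind the test is the gap between the 2 lines' differences, 1 residual degree of freedom, and the SE given here is the moderated one, which draws mostly on a prior over all genes. It was 0.12 to 0.15 for every tested member. The 95% confidence intervals of the members' mean differences ran from -0.80 at the lowest (COX7B) to 0.53 at the highest (SDHD), so a missed threshold does not show equal levels. The lines went the same way for 37 of the 80 members, 18 higher and 19 lower in both, where 57.5% of all tested genes went the same way. Across the 80 members, which share the same 4 arrays, Pearson's r between the lines was 0.17 and Spearman's rho 0.11, against 0.32 and 0.25 across all 12740 genes.

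**Figure D2:**
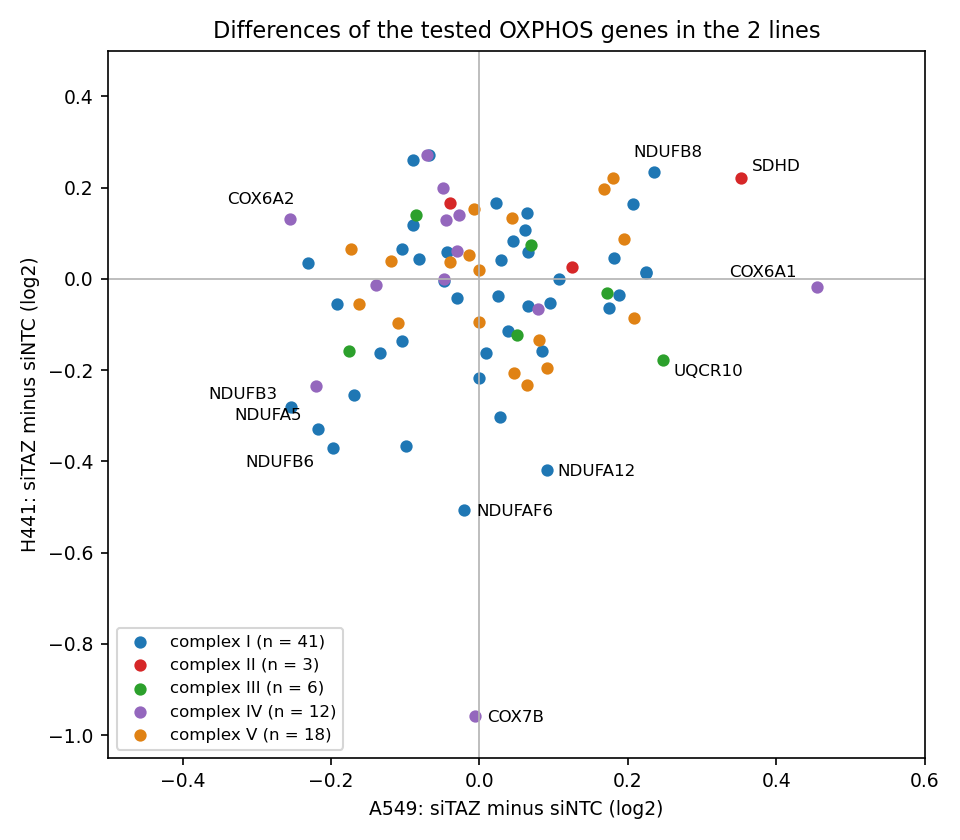
Difference of siTAZ minus siNTC (log2) in A549 (horizontal) against H441 (vertical) for the 80 tested members, coloured by complex; 1 point per gene, each from 1 array per condition. The points form no common direction, and COX7B lies alone at -0.01 in A549 and -0.96 in H441.

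Complex I takes electrons from NADH at its peripheral arm and pumps protons through its membrane arm. Its median difference over the members counted was 0.02 in A549 and -0.04 in H441, with 22 of 41 higher in A549 and 17 of 40 in H441. Among the core subunits of the peripheral arm, 5 of 6 were higher in A549 and 2 of 6 in H441. NDUFS3 had signals of 10.28 (siNTC) and 10.50 (siTAZ) in A549 and 9.81 and 9.83 in H441, and NDUFS7 had 7.33 and 7.55 in A549 and 7.57 and 7.59 in H441. NDUFV2, an iron-sulfur core subunit, was the exception in A549, with 9.39 and 9.29 there and 9.63 and 9.26 in H441 (limma mean difference -0.23 ± 0.12 SE, adjusted p = 0.41). Its other probe set gave -0.11 in A549 and -0.41 in H441. The signals of that probe set were nearly the same on every array (9.40 and 9.29 in A549, 9.65 and 9.24 in H441). The probe sets may therefore not be separate readings, and shared probes were not checked. Among members with 1 probe set, the probe set numbers ran in blocks by chromosome. By number the NDUFV2 set used falls among members on chromosome 19, while NDUFV2 is on chromosome 18. Its other set falls between members on chromosomes 17 and 18.

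A few accessory subunits of complex I were lower with siTAZ on both pairs of arrays, and none passed the limma test. NDUFB6, in the membrane arm, had 7.73 and 7.53 in A549 and 8.16 and 7.79 in H441 (mean -0.28 ± 0.12 SE, limma adjusted p = 0.26). NDUFA5, in the peripheral arm, had 8.37 and 8.15 in A549 and 9.27 and 8.94 in H441 (-0.27 ± 0.12 SE, limma adjusted p = 0.29). NDUFB3, in the membrane arm, had 6.38 and 6.12 in A549 and 7.01 and 6.73 in H441 (-0.27 ± 0.12 SE, limma adjusted p = 0.30). For each of these 3 genes, each H441 array was brighter than the A549 array of the same siRNA, so the siTAZ and siNTC values overlap across the lines and separate only within them. NDUFB8, also of the membrane arm, went the other way by the same amount in each line, from 9.45 to 9.68 in A549 and from 9.29 to 9.52 in H441 (0.24 ± 0.12 SE, limma adjusted p = 0.39). NDUFA9 was at 0.21 in A549 and 0.16 in H441 (limma adjusted p = 0.55).

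Other complex I genes had their larger difference in H441. NDUFA12, an accessory subunit of the NADH-binding end whose promoter is printed above, had 10.86 and 10.44 there, 1.34-fold lower with siTAZ, and 9.62 and 9.71 in A549 (limma adjusted p = 0.66). NDUFAB1, the mitochondrial acyl carrier protein, had differences of -0.30 in H441 and 0.03 in A549. NDUFA13 had 7.64 and 7.92 in H441 and 8.11 and 8.05 in A549 (limma adjusted p = 0.81). Whether the lines' responses differ was not tested, since a model with that term would use up all 4 arrays.

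The assembly factors of complex I, which help build it and are not part of it, were lower for 4 of 7 in A549 and 5 of 6 counted in H441. NDUFAF6 had 6.88 and 6.37 in H441, 1.42-fold lower with siTAZ, against 6.22 and 6.20 in A549 (-0.26 ± 0.13 SE, limma adjusted p = 0.37). NDUFAF7 had -0.17 in A549 and -0.26 in H441, NDUFAF1 -0.13 and -0.16, and NDUFAF4 -0.19 and -0.06. NDUFAF5 was counted only in A549, where it had 6.37 and 6.55, and its H441 signals of 5.65 and 5.70 were below the table median.

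Complex II oxidises succinate and is shared with the tricarboxylic acid cycle. SDHD, which encodes one of its membrane anchors, had 9.55 and 9.90 in A549 and 10.27 and 10.49 in H441. Both siTAZ arrays were above the siNTC array of their line, by 1.28-fold and 1.17-fold (0.29 ± 0.12 SE, unadjusted p = 0.022, limma adjusted p = 0.25). In A549 this rested on 1 of its 2 probe sets: the dimmer had 7.28 and 7.29 there and 8.19 and 8.38 in H441. The mean of the probe sets gave 0.19 (limma adjusted p = 0.51). SDHA, the flavoprotein, had 10.48 and 10.60 in A549 and 10.93 and 10.96 in H441 (limma adjusted p = 0.87). SDHC, the other membrane anchor, had 10.32 and 10.28 in A549 and 10.14 and 10.31 in H441 (limma adjusted p = 0.89). Its dimmer probe set had -0.26 in A549 and 0.07 in H441. By the numbering described above, the brighter SDHD set falls beside members on chromosome 1. SDHD is on chromosome 11, where its dimmer set falls. The brighter SDHC set falls among members on chromosome 17, while SDHC is on chromosome 1, beside whose members its dimmer set falls. The main values of both genes may therefore come from other loci, and the probe positions themselves were not checked.

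**Figure D3:**
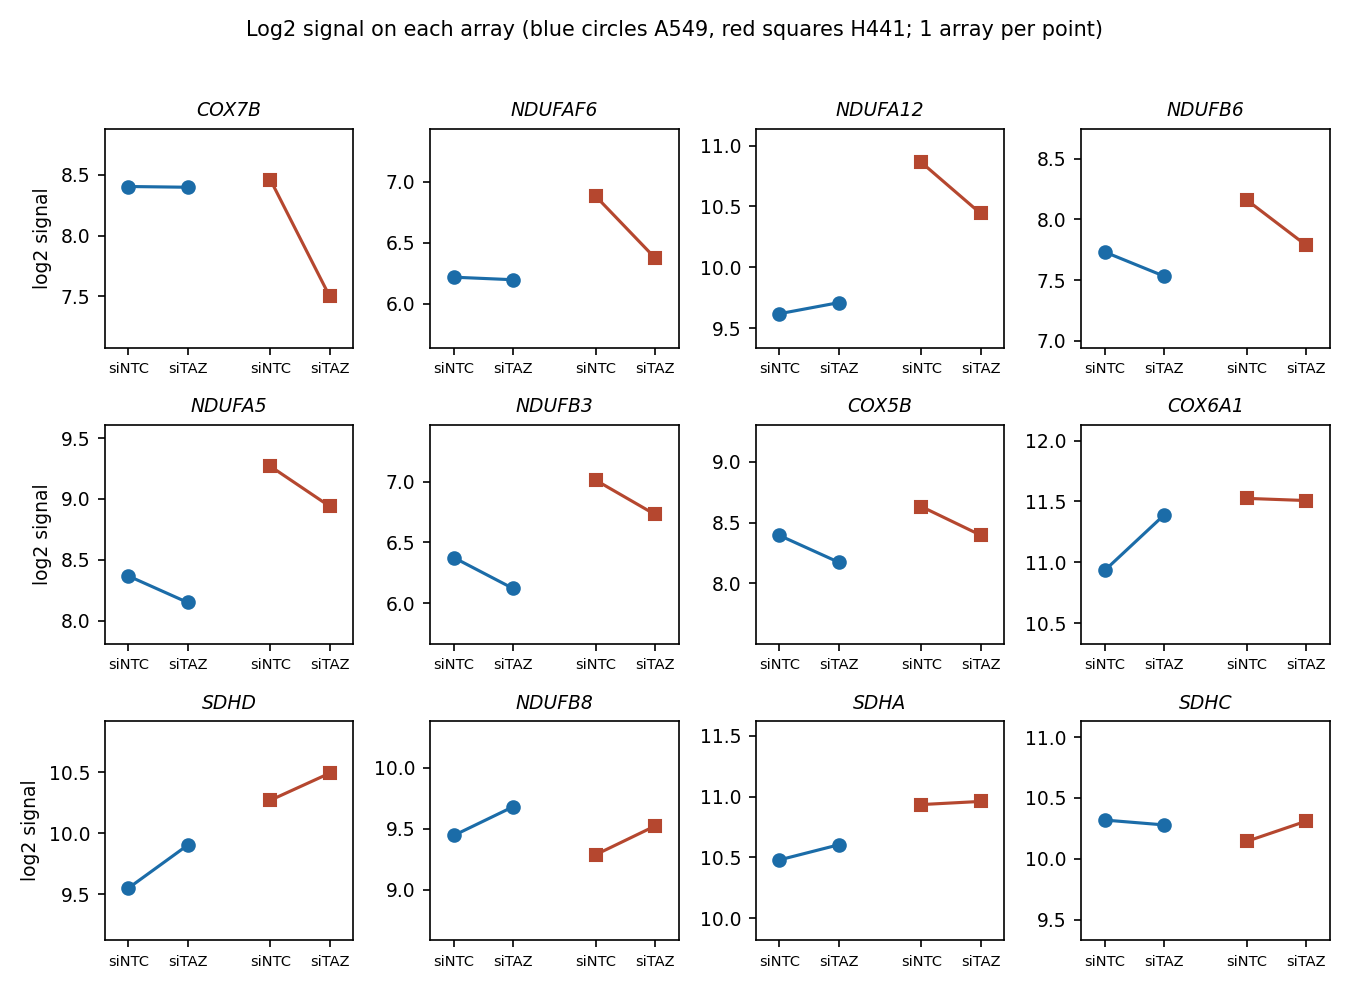
Log2 signal on each of the 4 arrays for 12 members, siNTC and siTAZ joined by a line within A549 (blue circles) and H441 (red squares); every panel spans the same range of 1.8 log2 units and there are no error bars because each point is 1 array. COX7B drops from 8.46 to 7.50 in H441 and stays at 8.40 in A549, while NDUFB6, NDUFA5, NDUFB3 and COX5B slope down and SDHD and NDUFB8 slope up in both lines. SDHD and SDHC are shown by their brighter probe sets, which may lie at other loci.

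Complex III had 6 tested members, of which 4 were higher in A549 and 2 in H441. UQCRQ, a small subunit, had 8.85 and 8.68 in A549 and 7.37 and 7.21 in H441 (-0.17 ± 0.12 SE, limma adjusted p = 0.60). The core subunit genes UQCRC1 and UQCRC2 differed by 0.07 and 0.05 in A549 and 0.07 and -0.12 in H441 (limma adjusted p = 0.87 and 0.94). UQCR11 had 0.17 in A549 and -0.03 in H441, and UQCRH, the hinge subunit, had -0.09 and 0.14. UQCR10 had 8.88 and 9.13 in A549 and 9.69 and 9.51 in H441, so the lines moved in opposite directions (limma adjusted p = 0.95). UQCRB was below the table median on all arrays.

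COX7B, a small X-linked subunit of complex IV, had the largest difference of any member. In H441 the signal went from 8.46 (siNTC) to 7.50 (siTAZ), 1.94-fold lower, and both A549 arrays had 8.40. The H441 array with siTAZ stood apart from the other 3, which lay within 8.40 to 8.46. Only 6 of the 11911 genes counted in H441 had a lower difference. The gene has 1 probe set, and no second array of H441 with siTAZ exists here to repeat the value. Over both lines it had -0.48 ± 0.15 (SE, limma adjusted p = 0.11). It passed the limma test after median centring (adjusted p = 0.020) and among genes with a mean signal at or above the 75th percentile of the table (adjusted p = 0.030), and over all 7 alternatives run its adjusted p ranged from 0.020 to 1.

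COX6A1, the widely expressed form of subunit 6A, had its larger difference in A549. It had 10.93 and 11.39 there, 1.37-fold higher, and 11.53 and 11.51 in H441 (0.22 ± 0.13 SE, limma adjusted p = 0.49). Its other probe set gave 0.39 in A549 and -0.04 in H441. COX5B, a zinc-binding subunit, was lower on both pairs, with 8.39 and 8.17 in A549 and 8.63 and 8.40 in H441 (-0.23 ± 0.12 SE, limma adjusted p = 0.41). COX5A, another widely expressed subunit, had -0.14 and -0.01 (limma adjusted p = 0.86). COX7A2L, which takes part in joining complexes III and IV, had -0.03 and 0.14 (limma adjusted p = 0.90). COX7C had -0.07 in A549 and 0.27 in H441 (limma adjusted p = 0.81), and COX6C had -0.05 and 0.20 (limma adjusted p = 0.87). In A549, 10 of the 12 counted complex IV genes were lower, with a median of -0.05, and in H441 6 of 12 were.

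Complex IV has isoforms that are made mainly in muscle, testis or other tissues in place of the common ones. COX4I2, COX6B2, COX7A1, COX7B2 and COX8C were below the table median on all 4 arrays, and their common counterparts COX4I1, COX6B1, COX7A2, COX7B and COX8A were above it on all 4. COX6A2, the striated muscle form of subunit 6A, was the only one of these isoforms counted, with 6.98 and 6.73 in A549 and 6.97 and 7.10 in H441 (limma adjusted p = 0.89). COX7B2 had 4.59 and 4.62 in A549 and 4.86 and 4.97 in H441, so it stayed dim on the array where COX7B was low. COX4I1 differed by -0.03 in A549 and 0.06 in H441, COX6B1 0.08 and -0.07, COX7A2 -0.05 and -0.0008, and COX8A -0.05 and 0.13 (limma adjusted p = 0.98, 0.99, 0.96 and 0.93).

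Complex V had no member at least 1.2-fold different in either line, with medians of 0.02 in A549 and 0.03 in H441. In the catalytic head and central stalk, all 4 members tested were lower in H441, by 0.09 to 0.19, and 2 of 4 were in A549. ATP5F1B, the catalytic beta subunit, had 13.16 and 13.05 in A549 and 13.00 and 12.91 in H441 (-0.10 ± 0.12 SE, limma adjusted p = 0.79). In the peripheral stalk, ATP5PF had 7.82 and 8.02 in A549 and 9.11 and 9.20 in H441 (limma adjusted p = 0.68). ATP5MC1, ATP5MC2 and ATP5MC3 all encode subunit c of the rotor ring, and differ in their targeting peptides. Their differences were -0.17, -0.01 and 0.17 in A549 and 0.07, 0.15 and 0.20 in H441 (limma adjusted p = 0.91, 0.87 and 0.55), all higher in H441. Among the membrane accessory subunits, ATP5MK had 0.18 in A549 and 0.22 in H441 (limma adjusted p = 0.49), ATP5MF -0.16 and -0.06 (0.78), and ATP5MJ 0.06 and -0.23 (0.84). The dimmer probe set of ATP5MK had 0.13 in A549 and 0.07 in H441. The inhibitor gene ATP5IF1 had -0.04 and 0.04.

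The machinery that builds and serves these complexes was described from 9 lists, named with the number of their members tested. Of their 199 tested entries 4 passed the limma test, a share of 2.01%, near the 2.47% of all genes, so the calls below are values of single genes and not of their lists. Without cell line as a block 0 genes of the whole table passed. NUBPL, which inserts iron-sulfur clusters into complex I, rose from 7.68 to 8.20 in A549 and from 8.74 to 9.16 in H441 (0.48 ± 0.12 SE, limma adjusted p = 0.027), and its call was lost after quantile normalization (adjusted p = 0.051), after cyclic loess (0.11) and without the filter on dim genes (0.090), in a range of 0.0040 to 1 over all 7 alternatives run. It was the only call among 13 assembly factors of complexes I and II. MRPL15, a protein of the large mitochondrial ribosomal subunit, fell from 8.38 to 7.89 in A549 and from 9.48 to 8.79 in H441 (-0.59 ± 0.12 SE, limma adjusted p = 0.0056, or 0.088 after cyclic loess in a range of 0.00048 to 1). It was the only call among 72 mitochondrial ribosomal protein genes. Of these, 42 of 71 counted were lower in A549 (median -0.01), where 48.4% of all genes were. In H441 53 of 72 were lower (median -0.06), where 48.8% of all genes were. These counts were made on the deposited scaling only. CHCHD3, a MICOS protein that shapes the cristae, fell from 9.72 to 8.51 in A549 and from 10.46 to 9.46 in H441 (-1.11 ± 0.12 SE, limma adjusted p = 1.1e-05), and was the only call among 12 MICOS and cristae genes. Its limma adjusted p was 0.027 after cyclic loess and 1.8e-09 after median centring. TK2, the mitochondrial thymidine kinase, rose from 7.10 to 8.20 in A549 and from 7.37 to 8.12 in H441 (0.92 ± 0.12 SE, limma adjusted p = 0.00011), and was the only call among 23 factors of biogenesis and mitochondrial DNA expression. With cyclic loess the limma adjusted p of TK2 was 0.046, and with median centring 2.8e-06.

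The other 5 lists had 0 limma calls over both lines. Their counts at an unadjusted p under 0.05 are set against the 13.2% of all genes. Of the 26 tested genes in the list for assembly of complexes III to V, which also holds the member ATP5IF1, 4 reached it (15.4%), 3 lower and 1 higher. SCO1, which delivers copper to complex IV, had 9.56 and 9.14 in A549 and 9.72 and 9.37 in H441 (-0.38 ± 0.12 SE, limma adjusted p = 0.088), and passed after median centring (0.043) and in the bright genes alone (0.021), in a range of 0.021 to 1. CMC1, another complex IV assembly factor, differed by 0.09 in A549 and -0.68 in H441 (limma adjusted p = 0.37). Of 17 genes of the tricarboxylic acid cycle and pyruvate dehydrogenase, 3 reached it (17.6%), all higher, with 0.38 and 0.25 for IDH3A (limma adjusted p = 0.19). The import complexes (19 tested) had 1 such gene (5.26%), TOMM70 (-0.17 and -0.34). The 10 electron carrier and ubiquinone-linked enzyme genes and the 7 carrier, porin and uncoupling genes had none.

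The other uncalled genes among the 3 with the largest mean absolute difference in their list follow, A549 first, then H441. Among the assembly factors, SDHAF3 for complex II had -0.23 and -0.36 (limma adjusted p = 0.23), TMEM186 for complex I -0.30 and -0.33 (0.19), and BCS1L, which inserts the iron-sulfur protein into complex III, -0.27 and -0.27 (0.30). COX20, a complex IV assembly factor outside the 3 largest, had 0.30 and 0.22 (limma adjusted p = 0.32) and was the 1 higher gene at an unadjusted p under 0.05 in its list. MTERF3, which acts on mitochondrial DNA transcription, had -0.37 and -0.37 (limma adjusted p = 0.11), and POLG2, the accessory subunit of the mitochondrial DNA polymerase, -0.50 and -0.10 (0.26). The ribosomal protein genes MRPL30 and MRPL23 had -0.28 and -0.39 (limma adjusted p = 0.15) and -0.16 and -0.49 (0.20). PDHB of pyruvate dehydrogenase had 0.44 and 0.12 (limma adjusted p = 0.29), and PC, pyruvate carboxylase, 0.01 and 0.51 (0.38). APOO and MICOS13 of MICOS had -0.02 and -0.40 (limma adjusted p = 0.49) and -0.10 and 0.21 (0.91). DNAJC19 of the import motor and TOMM22 of the outer membrane had 0.14 and -0.40 (limma adjusted p = 0.75) and -0.10 and -0.28 (0.54). The ADP/ATP carrier gene SLC25A4 had 0.19 and 0.28 (limma adjusted p = 0.39), UCP2 -0.33 and -0.13 (0.41), and VDAC1, a porin, -0.05 and 0.32 (0.72). ETFDH, which passes electrons from fat oxidation to ubiquinone, had 0.24 and -0.14 (limma adjusted p = 0.92). PRODH and SQOR, which also feed electrons to ubiquinone, had -0.17 and 0.14 (limma adjusted p = 0.98) and -0.12 and -0.18 (0.65).

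**Figure D4:**
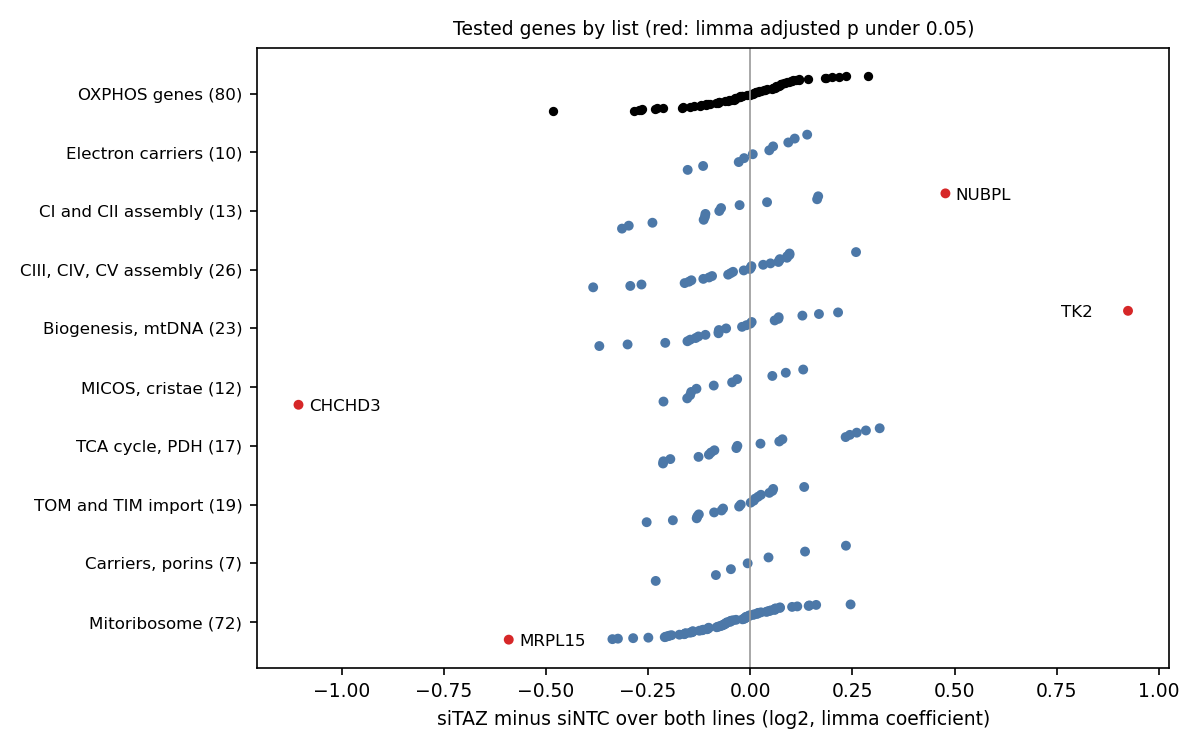
Limma mean difference of siTAZ minus siNTC over both lines (log2) for the 80 tested oxidative phosphorylation genes (black) and for the tested genes of 9 mitochondrial lists (number in brackets; the list for complexes III to V shares ATP5IF1 with the 80); red points passed at an adjusted p under 0.05. Only CHCHD3, MRPL15, NUBPL and TK2 are red.

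Many members differed between the lines, and the numbers called higher in A549 and in H441 both depended on how the arrays were scaled. The cell line coefficient of the same limma fit (A549 minus H441, both siRNAs) passed for 44 of 80 members, where 71.9% of all genes tested passed. Of these, 13 were higher in A549, where 19% of all genes were, and 31 in H441, where 52.8% were. The median coefficient was -0.16 over the members and -0.31 over all genes. After quantile normalization, which brought the median of all genes to -0.00028, 35 members were higher in A549 and 9 in H441, where 32.1% and 32.7% of all genes were. After cyclic loess 33 and 9 were, against 32.2% and 31.4% of all genes. With the same direction under the deposited values and all 3 other scalings, 13 members were called higher in A549 (19% of all genes) and 9 higher in H441 (31.2% of all genes). For A549 this was no added check. The median over all genes was lowest as deposited (-0.31), against -0.15 after median centring and 0.015 after cyclic loess. For each of the 13 the deposited coefficient was the lowest of the 4, and 2424 of 2425 genes called higher in A549 were kept.

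UQCRQ had the widest gap of these, 2.78-fold higher in A549 (1.48 ± 0.12 SE, limma adjusted p = 5.7e-11, or 1.48 to 1.83 over the scalings). COX6B1 was 2.03-fold higher in A549 (10.37 and 10.45, against 9.42 and 9.36 in H441; limma adjusted p = 4.0e-08). ATP5MJ was 1.84-fold, ATP5MC1 1.79-fold, NDUFAF5 1.73-fold and NDUFA1 1.5-fold higher in A549. For ATP5MK, 1.78-fold higher in A549, the probe sets disagreed: the dimmer had 8.70 and 8.83 in A549 and 9.51 and 9.58 in H441. Its place among the 13 therefore rests on the brighter probe set. By its number that set falls beside COX7B on chromosome X. ATP5MK is on chromosome 10, beside whose members the dimmer set falls. The value may therefore come from another locus, and the probe positions themselves were not checked. COX7B was among the 13 only through the H441 array with siTAZ, since its siNTC signals were 8.40 in A549 and 8.46 in H441.

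The 9 members higher in H441 were from complexes I and V. NDUFB5, in the membrane arm, had the widest gap, with 9.49 and 9.53 in A549 and 10.84 and 10.73 in H441 (2.41-fold, limma adjusted p = 1.0e-09). ATP5PF and ATP5PO, which belong to the peripheral stalk of ATP synthase, were 2.35-fold and 2.14-fold higher, while the other stalk genes ATP5PB and ATP5PD were not called (adjusted p = 0.099 and 0.54). NDUFV1, NDUFV3, NDUFA12 and NDUFS1 of complex I were 2.11-fold, 1.82-fold, 1.98-fold and 1.72-fold higher. NDUFA5 and NDUFB3 completed the set. Each line is represented by 2 arrays, so the gaps describe those arrays.

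**Figure D5:**
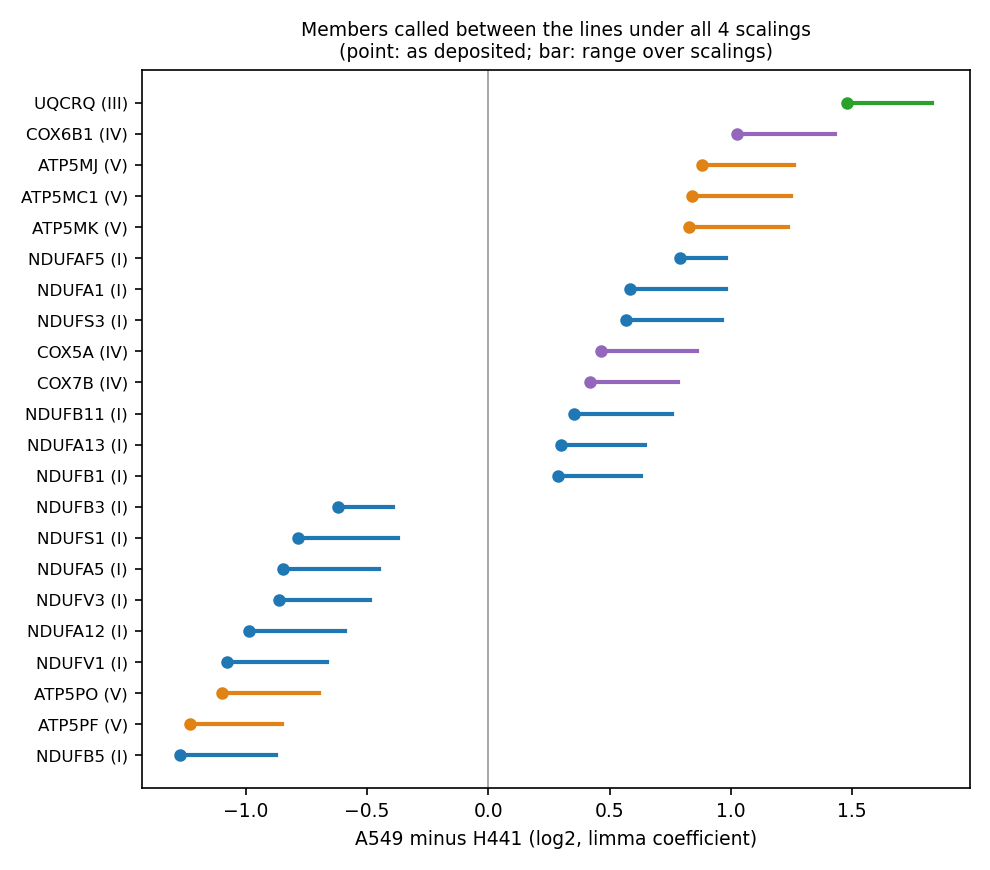
Limma coefficient of A549 minus H441 (log2) for the 22 members called in the same direction under 4 scalings of the arrays, with the complex in brackets; the point is the value as deposited and the bar spans the 4 scalings. UQCRQ lies farthest to the right at 1.48 and NDUFB5 farthest to the left at -1.27. ATP5MK is shown by its brighter probe set, which may lie at another locus, and its dimmer one went the other way.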

How the data were processed

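The authors deposited 1 table of log2 probe set signals, made with RMA per the submitters' processing notes. The sources used here do not give its software, version or whether the arrays were normalized together. The log2 scale was read from the deposited values (4.20 to 14.83 over 28869 probe sets). Probe sets were named through the platform annotation: 19310 had 1 symbol, 1752 several and 7807 none. Of several probe sets of a gene, the one with the highest mean was used. Of the 8 members with more than 1, the signs disagreed for NDUFS4 in H441 and NDUFAF2 in A549. Several members have processed pseudogenes that may share probes, which was not checked. By their numbers, the probe sets used for SDHD, SDHC, NDUFV2 and ATP5MK fall beside members on another chromosome than the gene's. The set used for COX6A1 falls among members on its own chromosome. The positions themselves were not checked.

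Differences were taken within a line with no test. limma 3.58.1 in R 4.3.3 (two-sided, prior worth 22.3 degrees of freedom) was fitted to 12740 genes whose highest value reached the table median, after a check on simulated data. Promoters were read from RefSeq windows. The number of arrays limits the precision. Members, lists and the rule for naming genes were chosen with earlier results of these data known. Named were the SDH genes, isoform sets, members 1.3-fold different in a line, and the largest differences per complex and list. NDUFV2, NDUFAB1, NDUFA13, NDUFS3, NDUFS1, NDUFV3, ATP5IF1, ATP5PB, ATP5PD, COX20 and the NDUFAF genes were named after their values were seen.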

Additional observations from a re-analysis of the deposited data

Results flagged for a closer look

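UQCR10 is given again because its A549 and H441 values lay on opposite sides of 0 by at least 1.1-fold each: siTAZ minus siNTC was 0.25 in A549 and -0.18 in H441. The difference between the lines was not tested.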

How the results depend on the processing

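All values rest on 1 array per combination of line and siRNA. The limma fit paired the arrays by cell line, and without that block 0 members had an unadjusted p under 0.05. Counts that moved by over 1.5 times follow, against the values in the main text. After median centring, 2 members in A549 were at least 1.2-fold lower, 0 in H441 were that much higher and 14 lower, 21 in H441 were higher at all, limma called 1 (COX7B), and between the lines 21 were called higher in A549 and 15 in H441. After quantile normalization, 2 in A549 were at least 1.2-fold lower and 5 in H441 higher, with 35 and 9 called between the lines. After cyclic loess, 6 in H441 were at least 1.2-fold higher, with 33 and 9 between the lines. Among bright genes alone (64 members) 1 in H441 was at least 1.2-fold higher and 5 lower, and limma called 1 (COX7B), with fewer genes tested. With probe sets averaged, 1 member in A549 was at least 1.2-fold higher. The counts without the filter on dim genes and with subunits only stayed within 1.5 times. Over both lines, the mean difference changed sign for 12 of 80 members after median centring, 4 after quantile normalization, 7 after cyclic loess and 1 of 79 with probe sets averaged. Among the genes named by rule, all uncalled, these did: after median centring COX4I1 (-0.032), COX6B1 (-0.041), COX8A (-0.0050), ETFDH (-0.00028), NDUFV1 (-0.026), UQCR10 (-0.012) and UQCRH (-0.020), after quantile normalization COX7A2 (0.0018), after cyclic loess COX7A2 (0.0016), ATP5PO (0.0011) and UQCRC2 (0.0013), and with probe sets averaged SDHC (-0.015). Where no construction shows it, the cause was not tested. Counting NDUFA4 and NDUFA4L2 with complex IV was not run, because neither was analysed here.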

Other observations

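Probe sets with several gene symbols were left out of every count above, and 9 of them name a gene of these families. The one naming UQCRHL, UQCRH and GNA13 had 10.05 and 9.83 in A549 and 10.46 and 10.13 in H441, lower with siTAZ by 0.22 and 0.33, while the single-symbol probe set of UQCRH had differences of -0.09 and 0.14. The one naming NDUFC2 and its readthrough gene had 0.15 in A549 and -0.11 in H441, and the one naming ATP5F1E and its readthrough gene had 0.21 and -0.08. The pair naming SDHA with its pseudogenes had -0.05 and 0.10 in A549 and -0.11 and 0.01 in H441. The one naming NDUFC2-KCTD14 and KCTD14 had the widest difference of the 9, -0.40 in A549, and 0.01 in H441.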
